A study of Mus musculus with 6 samples.

Results

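The genes described here are the axon guidance receptors and ligands of 4 signalling systems: semaphorins with their plexin and neuropilin receptors, ephrins with Eph receptors, Slits with Robo receptors, and netrins with Dcc, Neo1 and Unc5 receptors. They were chosen by symbol alone, and 70 of the 21006 symbols in the deposited count table matched, 35 receptors and 35 ligands. All 70 passed the filter on low counts and were tested. RNA came from cells of mouse branchial arches at E11.5, the paired bulges of the embryonic head and neck from which the jaws develop, sorted on the red reporter TdTomato. The 3 DKO (double knockout) libraries were floxed on both alleles of Ehmt1 and of Ehmt2, which encode the H3K9 methyltransferases GLP and G9a, and the 3 control libraries had wild-type alleles (+/+) of both. Both groups also carried Rosa26 TdTomato/+ and Wnt1-cre, so the controls hold the same Cre and reporter. The Wnt1 promoter drives Cre in the dorsal neural tube, from which neural crest cells leave, so recombination is directed to cells of that origin. The replicates are called biological in the labels, which do not say whether a library is 1 embryo or a pool, and p-values measure the spread between these libraries.

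These systems tell a moving cell or a growing axon where to go. A ligand, secreted (netrins, Slits, class 3 semaphorins) or held on the neighbouring cell (ephrins, most other semaphorins), binds a receptor that steers the cytoskeleton, most often to repel. In the head, Eph-ephrin, semaphorin-neuropilin and Slit-Robo signals are known to keep the streams of migrating neural crest apart, and the same genes later guide cranial nerves and vessels. Netrin attracts axons through Dcc and repels them through the Unc5 receptors, which are also known as dependence receptors that can trigger cell death when no ligand is bound.

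Of these genes, 1 rose and 2 fell in DKO, and all 3 encode receptors. Unc5a rose 3.92-fold, while its relative Unc5b and the semaphorin receptor Plxnd1 fell 1.60-fold and 1.93-fold. No ligand was called (edgeR, 0 of 35; 3 lower with DESeq2). At an unadjusted p under 0.05, 1 ligand was higher and 7 were lower, and 2 receptors were higher and 6 were lower. Of all tested genes, 11.0% were higher and 9.89% lower at that threshold. A call is an edgeR quasi-likelihood adjusted p below 0.05, with p-values adjusted over all 14555 tested genes. Over all tested genes 3.01% were called, 2.19% higher and 0.818% lower, so 3 of 70 members (4.29%) is near the background and does not by itself set the group apart. The share was 8.57% of receptors and 0% of ligands, a contrast that was not tested. In bulk RNA fewer cells of a type and less RNA per cell cannot be told apart. The plot of log2 fold changes shows the 3 called genes against the rest.

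**Figure D1:**
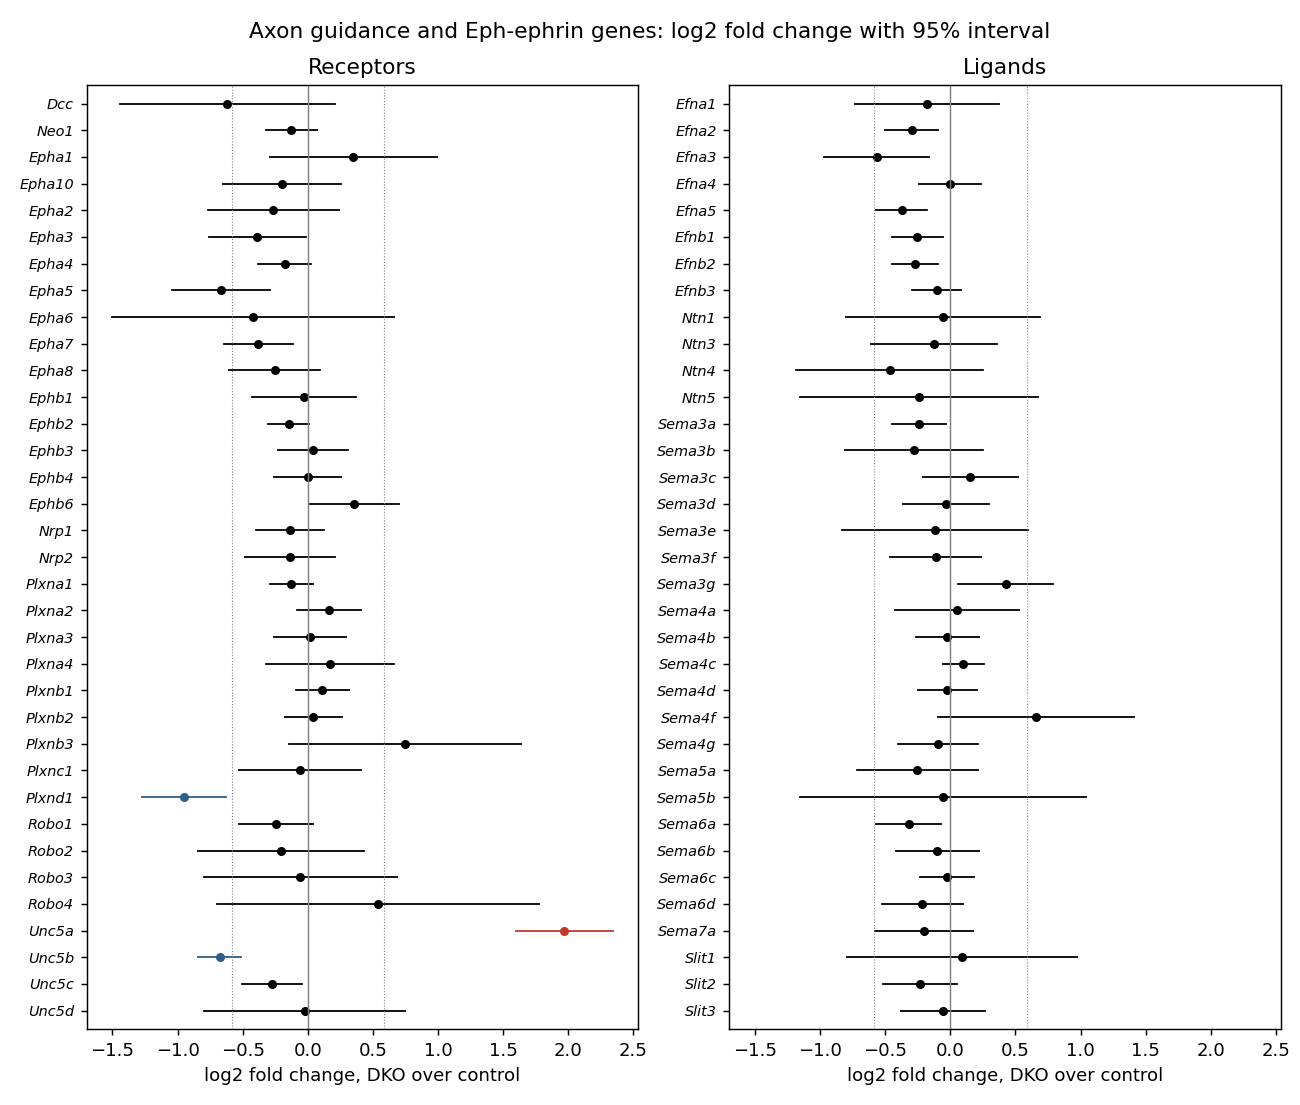
Log2 fold change of DKO over control (x axis) with its 95% interval for each receptor gene (left) and ligand gene (right), n = 3 libraries a group; red marks a gene called higher, blue called lower, black not called, and dotted lines mark a 1.5-fold change. Unc5a stands apart on the right at 1.97, Plxnd1 and Unc5b lie on the left at -0.95 and -0.68, and no ligand is coloured.

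The sequences below are the 250 bases before the start of each of the 3 called genes, shown because a pair of relatives moved in opposite directions. They are RefSeq promoters on GRCm38.p6 (mm10), written 5′ to 3′ on the gene's strand, with every CpG dinucleotide (CG, which reads the same on both strands) in capitals. Unc5a lies on the plus strand at chr13:54949161-54949410, Unc5b on the minus strand at chr10:60831582-60831831, and Plxnd1 on the minus strand at chr6:115995006-115995255.
Unc5a: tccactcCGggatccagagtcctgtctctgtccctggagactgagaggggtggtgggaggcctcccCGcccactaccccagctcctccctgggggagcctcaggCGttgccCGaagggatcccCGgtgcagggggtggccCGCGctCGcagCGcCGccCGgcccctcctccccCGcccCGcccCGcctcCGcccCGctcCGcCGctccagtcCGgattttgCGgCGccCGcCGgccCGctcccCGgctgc
Unc5b: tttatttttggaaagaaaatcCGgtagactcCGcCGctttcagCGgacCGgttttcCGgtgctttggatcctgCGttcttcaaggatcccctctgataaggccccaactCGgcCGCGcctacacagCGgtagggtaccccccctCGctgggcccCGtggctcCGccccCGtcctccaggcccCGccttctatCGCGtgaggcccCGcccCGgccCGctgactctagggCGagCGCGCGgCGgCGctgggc
Plxnd1: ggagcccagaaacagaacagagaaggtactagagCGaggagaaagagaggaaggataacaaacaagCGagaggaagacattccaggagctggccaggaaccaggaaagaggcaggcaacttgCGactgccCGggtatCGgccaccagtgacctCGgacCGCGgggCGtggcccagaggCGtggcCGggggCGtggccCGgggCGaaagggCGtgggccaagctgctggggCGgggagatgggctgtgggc
The windows of Unc5a and Unc5b held 25 and 27 CpGs, and that of Plxnd1 held 16. The median was 15 over 11580 tested genes with such a window, of which 99.1% held at least 1 CpG. So the gene that rose and its relative that fell both start from CpG-rich sequence, above 80.9% and 85.01% of those windows. Over the 60 members with a window the count ranged from 2 to 46, with a median of 16 in receptors and 16 in ligands.

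The libraries held 23414466 to 44538260 counts each. As a check of the labels, Ehmt2 stood at 128 ± 11.3 against 355 ± 7.13 CPM and Ehmt1 at 148 ± 18.2 against 259 ± 8.92 CPM (SD, n = 3 each). No DKO library reached a control library for either gene. CPM, the scale of all levels here, are counts relative to the TMM-scaled library total. Crest mesenchyme markers such as Prrx1 (538 CPM in controls) and Twist1 (341 CPM) were abundant, while the 12 epithelial markers summed to 28.1 CPM. The 15 neuron markers summed to 2026 CPM in controls. Among all genes 319 were called higher and 119 lower (72.8% higher), a split that was 83.9% higher with library-size scaling alone and 56.4% with DESeq2.

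Unc5a, an Unc5 netrin receptor gene (chromosome 13, 54949411 to 55006018), measured 16.8, 20.9 and 15.8 CPM in DKO replicates 1 to 3 and 4.83, 4.94 and 3.90 CPM in control replicates 1 to 3. Every DKO library stood at a higher level than every control library. The log2 fold change was 1.97 (SE 0.16, 95% interval 1.60 to 2.34; edgeR adjusted p = 0.00108), rank 19 by p among all tested genes. The call held in all 15 fits tried, between 1.84 and 2.05. Neither flanking tested gene was called: Tspan17 gave 0.70 (adjusted p = 0.0877) and Uimc1 gave 0.12 (adjusted p = 0.476). Hk3 overlaps the end of Unc5a on the opposite strand, and its 18 counts over the DKO and 3 over the control libraries compare with 2248 and 440 for Unc5a.

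Unc5b (chromosome 10, 60762593 to 60831581), the Unc5 receptor best known from blood vessel sprouting, measured 51.1, 48.8 and 45.2 CPM in DKO against 76.96, 79.2 and 75.8 CPM in controls. The groups were far apart for their spread, with SDs of 2.95 and 1.73 CPM. Its log2 fold change was -0.68 (SE 0.07, 95% interval -0.85 to -0.51; edgeR adjusted p = 0.00326), and the call held without any 1 library (adjusted p at most 0.0258). Unc5c, which steers cerebellar and spinal axons, measured 75.4, 90.3 and 93.96 CPM in DKO and 111, 95.4 and 109 CPM in controls. Its groups did not overlap, but it was not called (-0.28, SE 0.10, adjusted p = 0.172). Unc5d was low and overlapped, at 6.14, 11.1 and 5.88 CPM against 11.2, 6.42 and 5.74 CPM.

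The make-up of the family changed with these levels. Per kb of annotated exon, Unc5a made up 24.01%, 26.8% and 22.9% of Unc5 transcripts in DKO libraries and 5.67%, 6.07% and 4.83% in controls. Unc5b went from 62.5% ± 2.36 in controls to 44.6% ± 3.58 in DKO, and stayed the largest share. Unc5c held 27.7% ± 1.96 and 26.1% ± 3.20 (SD, n = 3 each). In CPM, the ratio of Unc5a to Unc5b was 0.329, 0.429 and 0.349 in DKO and 0.0628, 0.0623 and 0.0514 in controls. The summed Unc5 level was nonetheless lower, at 149, 171 and 161 CPM in DKO and 204, 186 and 194 CPM in controls, with no overlap. Shares in a library sum to a whole, so they are not independent of one another.

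**Figure D2:**
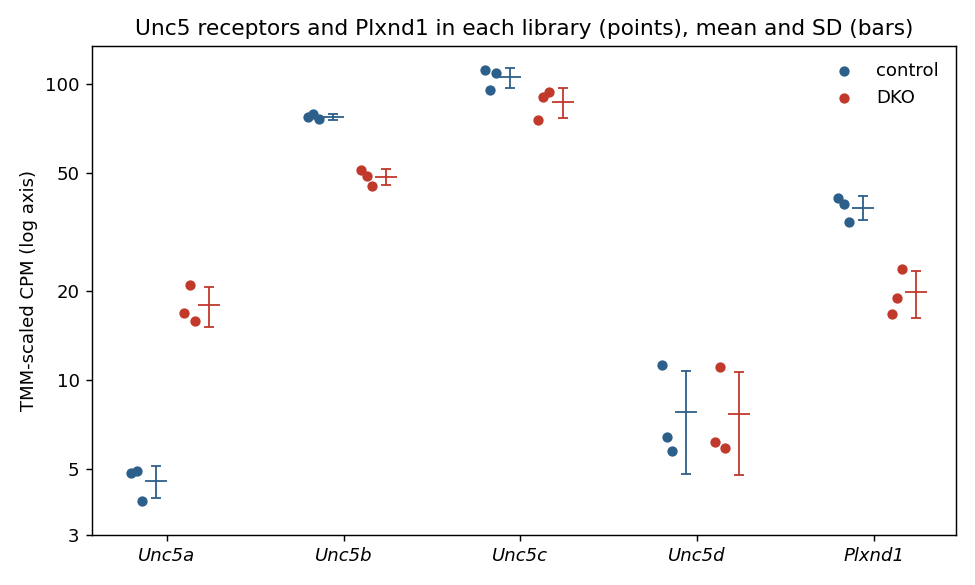
Level in TMM-scaled CPM (log axis) of the 4 Unc5 receptor genes and Plxnd1 in each library (points), with the mean and SD of 3 libraries (bars) for control (blue) and DKO (red). Unc5a is higher in all DKO libraries, Unc5b and Plxnd1 are lower in all of them, and Unc5d overlaps.

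**Figure D3:**
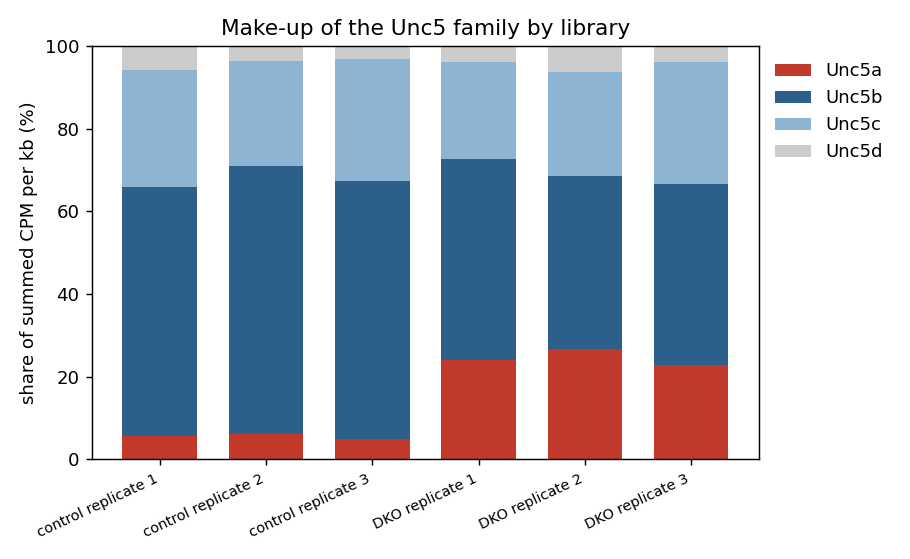
Share of the summed CPM per kb of exon (y axis, percent) taken by each Unc5 gene in each library (bars). The Unc5a share lies between 4.83% and 6.07% in the controls and between 22.9% and 26.8% in DKO.

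The other netrin receptors were not called. Neo1, which also binds RGM proteins, was the most abundant per kb among Dcc and Neo1, at 340.4, 371 and 315 CPM in DKO and 367, 396 and 357 CPM in controls (-0.13, SE 0.08). Dcc, the attractive netrin receptor of neurons, spread widely, with 58.2, 62.1 and 109 CPM against 121, 79.1 and 152 CPM. The groups overlapped, and its log2 fold change of -0.62 had an interval of -1.44 to 0.21. Of the 4 netrin ligands, 0 were called. Ntn1 measured 59.4, 40.2 and 77.5 CPM in DKO and 73.5, 40.96 and 69.2 CPM in controls, so the ligand shared by Dcc and the Unc5 receptors overlapped between groups. Ntn3, the most abundant per kb, had a log2 fold change of -0.12 (SE 0.21), Ntn4 of -0.47 (SE 0.31) and the scarce Ntn5 of -0.24 (SE 0.40). All 4 netrin intervals reach beyond a 1.5-fold change in at least 1 direction.

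Among the 9 plexins, the signalling receptors for semaphorins, Plxnd1 fell and no other was called. Plxnd1 (chromosome 6, 115954811 to 115995005), the Sema3e receptor known from vessel and outflow tract patterning, measured 16.6, 18.8 and 23.7 CPM in DKO and 41.02, 39.3 and 34.1 CPM in controls. The highest DKO library, replicate 3, stayed below the lowest control library. The log2 fold change was -0.95 (SE 0.14, 95% interval -1.27 to -0.63; edgeR adjusted p = 0.0126). The call ended when control replicate 1 was left out (-0.88, adjusted p = 0.0644). It also ended with control replicate 2 left out (-0.92, adjusted p = 0.0668). The call held without each of the other 4 libraries, but only just without DKO replicate 1 (edgeR adjusted p = 0.0499). Per kb, Plxnd1 was a small part of the plexin pool, 3.03% ± 0.240 in controls and 1.57% ± 0.306 in DKO.

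The abundant plexins had narrow intervals that include 0. Plxnb2, the receptor for several class 4 semaphorins and the most abundant plexin per kb, measured 574, 607 and 486 CPM in DKO and 539, 561 and 518 CPM in controls, with an interval of -0.18 to 0.26. Plxna1 (-0.12, interval -0.29 to 0.04) and Plxnb1 (0.11, interval -0.09 to 0.32) were as tightly bounded, although every DKO library was below every control library for Plxna1. Plxna2, Plxna3, Plxna4 and Plxnc1 lay between -0.06 and 0.17. Plxnb3 stood at 0.943, 1.37 and 1.07 CPM against 0.850, 0.852 and 0.308 CPM, without overlap but with 66 counts over all controls, and was not called (0.75, SE 0.39, adjusted p = 0.309). The neuropilins, co-receptors for class 3 semaphorins, gave -0.14 for Nrp1 and -0.14 for Nrp2 (SE 0.11 and 0.15). Nrp2, the more abundant per kb, measured 238, 260.3 and 179 CPM in DKO and 280.5, 245 and 218 CPM in controls and overlapped.

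None of the 20 semaphorins was called with edgeR. At an unadjusted p under 0.05, 1 was higher and 2 were lower (background 11.0% and 9.89%). Sema3e, the Plxnd1 ligand, was low in both groups, at 1.19, 2.10 and 1.54 CPM against 2.30, 1.62 and 1.30 CPM. Sema3g, a class 3 semaphorin known from arteries, had the 1 unadjusted p under 0.05 on the higher side, with 6.41, 6.42 and 6.93 CPM against 4.65, 4.44 and 5.61 CPM and no overlap (0.43, SE 0.16, edgeR adjusted p = 0.182). On the lower side were Sema3a, the classical growth cone collapsing factor (-0.24, SE 0.09), and Sema6a, a transmembrane ligand of A-type plexins (-0.32, SE 0.11). Both overlapped between groups. Sema3f, which signals through Nrp2 and was the most abundant class 3 member per kb, measured 137, 152 and 109 and 157, 156 and 118 CPM. Sema4c, a Plxnb2 ligand and the most abundant of classes 4 to 7 per kb, measured 148, 141 and 156 CPM in DKO and 136, 135 and 145 CPM in controls (0.10, interval -0.06 to 0.26). Sema4f had the largest estimate at 0.65, with 16.7, 21.7 and 9.12 CPM in DKO against 12.8, 8.17 and 9.06 CPM. DKO replicate 3 lay among the controls, and the gene was not called (SE 0.32, adjusted p = 0.291), whereas without that library it was called higher at 0.93 (adjusted p = 0.0424).

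All 8 ephrin genes had negative log2 fold changes, and none was called with edgeR. DESeq2 called 3 lower: Efna2 (adjusted p = 0.0468), Efnb2 (adjusted p = 0.0220) and Efna5, given below. With library-size scaling alone, which raised the median of all tested genes to 0.07, 7 of 8 were negative. Without DKO replicate 3, where the median of all tested genes was -0.00056, the number was 6 of 8. The median over the ephrins was -0.26, against -0.01 over all tested genes. Of the 8, 5 had an unadjusted p under 0.05 (background 9.89% lower) and the same 5 did not overlap between groups (background 12.7% below). Ephrins are short-range ligands that stay on the cell surface, the A class by a lipid anchor and the B class by a transmembrane domain that signals back into its own cell.

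Efna5 came closest to the threshold, with 87.4, 97.9 and 85.1 CPM in DKO against 119.8, 123 and 108 CPM in controls (-0.38, SE 0.08, edgeR adjusted p = 0.0559). It was called lower without the filter on low counts (adjusted p = 0.0463) and with DESeq2 (adjusted p = 0.00386). Efna2, the most abundant A-type ephrin per kb, measured 90.4, 90.8 and 89.2 CPM against 102, 126 and 105 CPM (-0.30, adjusted p = 0.117). The 3 DKO libraries lie close together, and the spread lies in the controls. Efna3 was scarce and had the largest estimate, 4.23, 5.25 and 4.13 CPM against 6.71, 7.58 and 5.91 CPM (-0.57, adjusted p = 0.132).

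Among B-type ephrins, Efnb1, the gene of craniofrontonasal syndrome and the most abundant per kb, measured 170.2, 167 and 142 CPM in DKO and 184, 199 and 188 CPM in controls (-0.25, adjusted p = 0.152). Efnb2, the arterial ephrin and partner of Ephb4, measured 267, 266 and 291 CPM against 311, 330.3 and 352 CPM (-0.27, adjusted p = 0.110). Neither overlapped between groups. Summed over the 3 genes, the B class stood at 576, 581 and 557 CPM in DKO and 646, 680.4 and 681 CPM in controls. Efnb3, Efna1 and Efna4 overlapped (-0.11, -0.18 and -0.0032).

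**Figure D4:**
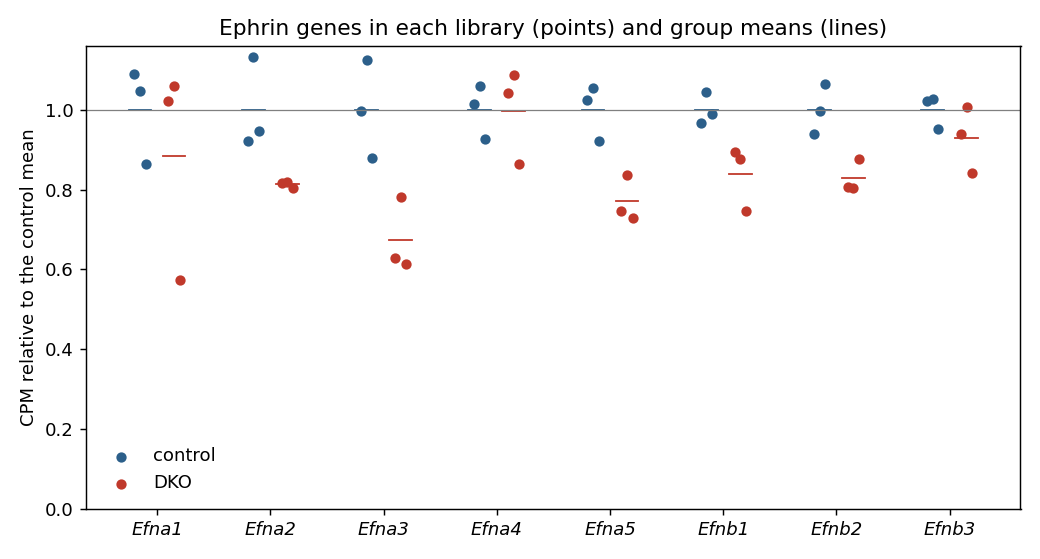
Level of each ephrin gene in each library (points) relative to the mean of the 3 control libraries (y axis, from 0), with group means (lines), for control (blue) and DKO (red). For Efna2, Efna3, Efna5, Efnb1 and Efnb2 every DKO point lies below every control point, and for Efna1, Efna4 and Efnb3 the groups overlap.

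None of the 14 Eph receptor tyrosine kinases was called with edgeR, and DESeq2 called 2 lower, Epha5 and Epha7. At an unadjusted edgeR p under 0.05, 1 was higher and 3 were lower (background 11.0% and 9.89%). Epha5, known from the retinal map of the brain, measured 10.02, 10.9 and 9.95 CPM in DKO and 19.97, 12.9 and 15.8 CPM in controls without overlap. Its log2 fold change of -0.66 (SE 0.16) missed the threshold (edgeR adjusted p = 0.0731; 0.00818 with DESeq2). Epha7 (-0.38, SE 0.12) and Epha3 (-0.39, SE 0.16) overlapped between groups. Epha4, the most abundant A-type receptor per kb and a crest stream receptor, measured 241, 271 and 232 CPM against 306, 266 and 269 CPM (-0.18, interval -0.38 to 0.03).

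The B-type receptors include the most abundant Eph gene per kb, Ephb4. This venous receptor measured 311, 318 and 237 CPM in DKO and 280.3, 301 and 286 CPM in controls (-0.00071, interval -0.26 to 0.26). Ephb2 and Ephb3 gave -0.15 and 0.04 (SE 0.07 and 0.12), and Ephb1 gave -0.03. Of these, Ephb2 was lower in every DKO library than in any control, but was not called (adjusted p = 0.265). Ephb6, which lacks kinase activity, measured 52.1, 56.6 and 37.8 CPM against 41.2, 34.8 and 38.3 CPM. Replicates 1 and 2 of DKO were above all controls and replicate 3 was among them. It was not called (0.36, SE 0.15, adjusted p = 0.222), but was without DKO replicate 3 (0.51, adjusted p = 0.0241). The remaining Eph genes were scarce or overlapped: Epha1 (0.35), Epha2 (-0.27), Epha6 (-0.42) and Epha10 (-0.20), while Epha8 (-0.26, adjusted p = 0.370) separated the groups narrowly.

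Slits and Robos, best known from the guidance of axons at the midline, had 0 of 7 genes called with edgeR and 0 with DESeq2. At an unadjusted edgeR p under 0.05 the number was also 0. Robo1, the most abundant Robo per kb, measured 394, 445 and 321 CPM in DKO and 488, 473 and 416 CPM in controls (-0.25, SE 0.12). Slit3, the most abundant Slit per kb, measured 69.3, 79.3 and 57.6 against 82.5, 69.05 and 62.5 CPM (-0.06, interval -0.38 to 0.27). Slit2, Slit1, Robo2 and Robo3 overlapped too (-0.23, 0.09, -0.20 and -0.06). The endothelial Robo4 was scarce, with 77 and 40 counts over the groups.

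Over all members, 53 of 70 log2 fold changes were negative, with a median of -0.13 in receptors and -0.11 in ligands, against -0.01 over all tested genes, of which 48.8% were positive. The median standard error of a single gene was 0.15 over members and 0.12 over all tested genes. It does not measure the error of these medians. Over receptors and ligands together the median was -0.12. Library-size scaling alone raised it to -0.05 with 40 negative, and raised the median of all tested genes alike, to 0.07. Without control replicate 1 the members' median was -0.03 with 39 negative, while that of all tested genes was 0.01. Groups did not overlap for 3 members above and 12 below control (21.4%, against 27.2% of all tested genes). The 95% interval lay wholly within a 1.5-fold change for 38 of 70 members (16 receptors and 22 ligands; 54.3%, against 63.5% of all tested genes). For the others the data do not bound the change that tightly.

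Partners and effectors of the 4 systems were read from 4 lists with 116 tested genes. Of these, 4 rose and 2 fell (5.17%, background 3.01%). The lists were drawn up with earlier results of these data known, so these shares cannot be fairly compared. In the semaphorin list 2 of 28 rose. Crmp1, a collapsin response mediator that carries the Sema3a signal to microtubules, measured 443, 429.6 and 433 CPM in DKO and 253, 241 and 308 CPM in controls (0.70, SE 0.10, edgeR adjusted p = 0.0102). L1cam, an adhesion molecule that partners Nrp1, measured 94.2, 102 and 81.4 CPM against 63.6, 58.8 and 55.2 CPM (0.64, SE 0.10, adjusted p = 0.0148). The Crmp1 relatives Dpysl2 to Dpysl5 were not called, with log2 fold changes of -0.22, -0.14, -0.08 and -0.29.

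In the Eph-ephrin list 1 of 30 rose and 1 fell. The ephrin-B scaffold gene Grip2 measured 2.48, 3.91 and 2.84 CPM in DKO against 1.34, 0.628 and 0.855 CPM (1.67, SE 0.33, edgeR adjusted p = 0.0354). Adam10, the protease that cuts A-type ephrins from their receptors, measured 134, 136 and 151 CPM against 184, 177 and 184 CPM (-0.37, SE 0.07, adjusted p = 0.0326). The Slit-Robo list had 1 of 31 lower, the Robo co-receptor family gene Flrt1, at 5.17, 6.26 and 4.13 CPM against 11.3, 10.005 and 9.23 CPM (-0.97, SE 0.18, adjusted p = 0.0319). Its relatives Flrt2 and Flrt3, which are Unc5 ligands, gave -0.35 and -0.33 and were not called. In the netrin list 1 of 27 rose and 0 fell. The gene was Unc5cl, which resembles the inner part of an Unc5 receptor. Whether Unc5cl acts in netrin signalling was not tested. It measured 1.75, 2.03 and 1.94 CPM in DKO against 0.134, 0.0897 and 0.205 CPM in controls (3.69, edgeR adjusted p = 0.00150). The control levels are very low, so the size of this fold change rests on few control reads. Each of these calls except that of Unc5cl ended without at least 1 library, at adjusted p of 0.0530 for Crmp1 without DKO replicate 1, and up to 0.0706 for L1cam, 0.118 for Grip2, 0.173 for Adam10 and 0.135 for Flrt1. Library-size scaling alone also ended the call of Adam10 (adjusted p = 0.0740).

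Markers of other cells that use these genes were read beside them, from lists also drawn up with earlier results known. Unc5a is a neuronal gene by its known expression, and of 15 neuron markers 14 had negative log2 fold changes and 1 was called, Pou4f1, which fell (-0.45, SE 0.09, edgeR adjusted p = 0.0306). At an unadjusted p under 0.05, 5 of the 15 were lower and 0 higher (background 9.89% and 11.0%). Their summed level was 1736, 1689.8 and 1901 CPM in DKO and 2021, 1792 and 2264 CPM in controls and overlapped. Plxnd1 and Unc5b are known from endothelium, and all 12 tested of 13 endothelial markers had positive log2 fold changes, with 1 called, Tie1, which rose (3.04). At an unadjusted p under 0.05, 3 of those 12 were higher and 0 lower. The endothelial sum was 52.7, 62.9 and 56.4 CPM in DKO and 44.98, 36.2 and 37.4 CPM in controls. Its mean, with Tie1 included, was 57.3 CPM in DKO and 39.5 CPM in controls. Tie1 alone had a mean of 8.05 CPM in DKO and 0.965 CPM in controls, so this gene makes up much of the difference. Whether the sum differs without Tie1 was not tested. Of the 13, Sox17 had no count in control replicate 2, and it was not tested. Glial markers had 0 of 9 called (edgeR; 1 higher and 1 lower at an unadjusted p under 0.05). Crest mesenchyme markers, at 2731, 2763 and 2257 CPM in DKO and 2895, 3035 and 2556 CPM in controls, had 0 of 16 called (edgeR; 4 lower at an unadjusted p under 0.05). The part of cell makeup in the results above was not tested.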

How the data were processed

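Polyadenylated RNA of 3 DKO and 3 control libraries was prepared with a strand-preserving Illumina kit, per the labels. What the authors deposited is 1 table of raw counts, whole numbers with genes named by symbol. The tools listed in the submitters' processing notes are Trim Galore, Picard and STAR 2.7.10a, and the build is mm10. Which program counted the reads, with which annotation and strand setting, the sources used here do not say, so overlapping genes may share reads.

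Tests are edgeR 4.0.16 quasi-likelihood tests (robust, in R 4.3.3) after filterByExpr by group (minimum count 10, minimum total 15) and TMM scaling, 2-sided, with group as the only term and Benjamini-Hochberg adjustment over 14555 genes. The SE is the log2 fold change divided by the root of F, and 95% intervals use the t quantile of the fit. Lengths and gene coordinates are GENCODE vM21 (GRCm38, the assembly of mm10), counted from 1. Lengths are the union of annotated exons, so levels per kb are approximate. In data simulated for DKO against control over 14453 genes, 47 of 100 genes with a true 1.5-fold change and 79 of 100 with a 2-fold change were recovered, and 11.9% of 143 calls were false.

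Members were matched, and split into receptors and ligands, by symbol and not by their values. The symbol patterns, effector lists and marker lists were set with earlier results of these data known. Values per library are given for members that were called, for members with an unadjusted p under 0.05 and no overlap, and for the most abundant member per kb of each family; other values per library were chosen after they were seen. Effector lists name their called members, and others named were chosen after their values were seen. Alternatives were RLE, library-size scaling, no filter, at least 1 CPM in 3 libraries, DESeq2 1.42.0, limma-voom (limma 3.58.1), a replicate block, a test against a 1.5-fold change, and each library left out in turn.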

Additional observations from a re-analysis of the deposited data

How the results depend on the processing

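The call of Unc5a held under all 14 alternatives. That of Unc5b ended only in the test against a 1.5-fold change (adjusted p = 0.995), and that of Plxnd1 there (adjusted p = 0.211) and without control replicate 1 or 2. That test left 1 member higher and 0 lower (0 receptors lower), 1 and 0 partner genes, 104 and 18 of all genes, and Ehmt1 at -0.81 lost its call (adjusted p = 0.277). DESeq2 called 7 members lower (4 receptors and 3 ligands), 6 partner genes lower, and 624 and 482 of all genes. Without the filter 1 ligand was lower, Efna5, and with library-size scaling alone 1 partner gene was lower. With each library left out in turn the counts ranged from 1 to 3 members higher and 1 to 2 lower, 1 to 2 and 1 to 2 receptors, 0 to 1 ligands higher (0 lower in each), 1 to 5 and 0 to 8 partner genes, and 110 to 597 and 21 to 509 of all genes. Without DKO replicate 3 they were 3 and 2 members and 597 and 509 of all genes, the highest of the range for all genes. The cause of these changes was not tested.

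The replicate numbers are shared between groups but need not pair the libraries: same-numbered deviations correlated at 0.05, -0.03 and 0.36, and DKO replicate 2 correlated best with another number. With a replicate block 4 members were lower, Plxnd1, Unc5b, Dcc (adjusted p = 0.0371) and Efna5 (adjusted p = 0.0355, 1 ligand), and 196 of all genes were lower. Depth limits Plxnb3, Robo4, Epha6 and Ntn5, each below 1 CPM in controls.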

Other observations

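Of the members that varied widely between replicates of a group, Sema5b ranked the libraries as neural tube markers did, and some others shared only part of that order. The summed level of 10 neural tube markers, a list that holds Sox2, Pax6 and Dbx1, was 128, 85.9 and 275 CPM in DKO replicates 1 to 3 and 148, 99.1 and 225 CPM in control replicates 1 to 3. Sema5b, a semaphorin of neural progenitors, measured 26.2, 21.7 and 54.1 CPM and 35.03, 22.03 and 48.8 CPM, which puts the 6 libraries in the same order as the marker sum. Slit1, at 18.9, 22.4 and 41.1 CPM and 27.7, 16.7 and 32.9 CPM, was likewise highest in replicate 3 of each group. Ntn1 and Dcc, given above, were lowest in replicate 2 among the controls and highest in replicate 3 among the DKO libraries, as was the marker sum. Unc5d, also given above, followed another order, highest in DKO replicate 2 and in control replicate 1. Of the 10 neural tube markers 0 were called (edgeR, and 0 at an unadjusted p under 0.05), and their sum overlapped between groups. These genes were set beside the markers after their values were seen, the points share their libraries, and the part of neural tube RNA was not tested.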
